A study of Mus musculus with 45 samples.

Results

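The genes described here are 10 genes of fasting metabolism and of lipid droplets, the fat stores of the cell: Pdk4, Angptl4, Plin2, Plin3, Vnn1, Creb3l3, Ucp2, Pnpla2, Abhd5 and G0s2. They were picked by name, with earlier results of these libraries known, out of 47729 genes in the tables, so their counts beside those of all genes are descriptions of a selected set. All 10 were among the 14020 genes with enough reads to be tested, above 5 reads in 6 or more of the 45 libraries. Pdk4 and G0s2 reached this only with their HFD libraries counted. That they were tested is therefore not independent of their higher level on HFD. The question was how their mRNA differed between diets in sorted small intestinal tuft cells, the rare chemosensory cells of the gut lining. Each of the 45 libraries came from 1 male C57BL/6J mouse, 5 weeks old on arrival, given 1 week to settle and housed 4 to a cage at 30 °C. Mice were fed either a reference diet (RFD, 10% of energy from fat) or a high fat diet (HFD, 60% of energy from fat). The fat of both diets was lard and soybean oil, and the RFD held more carbohydrate, mostly starch. The set named STF held 11 RFD and 11 HFD mice, and the set named LTF held 11 RFD and 12 HFD mice. The study's methods describe feeding for 9 and 22 weeks, the labels give 9 weeks for all 45 libraries, and LTF was taken as the 22-week set, so feeding time and set cannot be told apart. By those methods the 22-week mice were also older at harvest. They alone had glucose and insulin tolerance tests, each after some hours without feed, in the weeks before harvest. Cells were taken from 20 cm of small intestine and sorted as live EpCAM+ Siglec-F+ cells, a gate that enriches tuft cells and may hold others. The labels and sorting methods write the gate as CD45+, while elsewhere the study describes cells with CD45 as left out, so the CD45 status of the sorted cells is uncertain.

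Fasting shifts cells from burning glucose to burning fat, and much of that shift runs through PPAR alpha, a nuclear receptor that binds fatty acids and turns on target genes together with its partner RXR. Fat that is not burned or exported is stored as triglyceride in droplets coated by perilipins, and it is released again by the lipase ATGL with its activator CGI-58 and its inhibitor G0S2. Absorptive enterocytes of the small intestine are known for large droplets after a fatty meal.

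Total reads on genes ran from 189340 to 4690213 per library, and no pair of libraries in a group was alike within sampling noise. All 14 tuft cell markers examined were detected in each of the 4 groups, but their summed level was uneven. In STF it had a median of 16340 CPM (reads scaled to a fixed library total, normalised between libraries) on RFD and 6897 CPM on HFD, and in LTF 18070 and 14090 CPM. Markers of Paneth cells, which secrete antimicrobial peptides in the crypts, ran the other way, with medians of 2733 and 28200 CPM in STF and 1488 and 11400 CPM in LTF. In 1 STF HFD library the Paneth cell markers summed to 600700 CPM. None of the 14 tuft cell and none of the 7 Paneth cell markers passed the test in either set. The LTF library of RFD mouse 3 had reads on 8609 genes, the fewest of all, and no read of Plin2. In bulk samples, fewer cells of a type and less RNA per cell cannot be told apart.

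RefSeq held promoter windows for 8 of the 10 genes (GRCm38.p6), and the stretch from 250 to 51 bases before the start is shown for the 4 of them that differed between diets in at least 1 set. Capitals mark the hexamer AGGTCA, read as TGACCT on the other strand, the half-site that PPAR alpha and RXR recognise in pairs. The windows are Plin2 at chr4:86670110-86670309 (minus strand), Abhd5 at chr9:122351366-122351565 (plus strand), Pdk4 at chr6:5496329-5496528 (minus strand) and G0s2 at chr1:193273239-193273438 (minus strand).
Plin2: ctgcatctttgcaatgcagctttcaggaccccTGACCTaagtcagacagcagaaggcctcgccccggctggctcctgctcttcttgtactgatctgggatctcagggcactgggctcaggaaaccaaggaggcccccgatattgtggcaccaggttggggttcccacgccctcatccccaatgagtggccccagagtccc
Abhd5: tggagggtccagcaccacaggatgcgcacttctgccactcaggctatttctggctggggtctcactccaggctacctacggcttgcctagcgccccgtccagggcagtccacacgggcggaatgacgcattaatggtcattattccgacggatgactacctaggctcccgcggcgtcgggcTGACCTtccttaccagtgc
Pdk4: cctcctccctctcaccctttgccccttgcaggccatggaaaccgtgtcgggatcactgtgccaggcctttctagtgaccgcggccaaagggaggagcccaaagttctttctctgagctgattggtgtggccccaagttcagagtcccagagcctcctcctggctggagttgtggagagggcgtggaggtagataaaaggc
G0s2: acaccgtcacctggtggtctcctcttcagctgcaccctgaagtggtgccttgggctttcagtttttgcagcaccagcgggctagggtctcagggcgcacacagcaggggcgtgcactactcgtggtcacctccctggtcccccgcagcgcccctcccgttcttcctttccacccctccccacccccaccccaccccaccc
Plin2 held the hexamer once, 218 bases before the start, and Abhd5 once, 69 bases before it, while Pdk4 and G0s2 held none in the 250 bases searched. Of the other windows, 1 of the 2 of Creb3l3 held it, 202 bases before the start, and those of Ucp2, Pnpla2 and Plin3 held none. Over all 32851 windows of this length, 14% held the hexamer on either strand and 0.0335% held the paired form AGGTCANAGGTCA or its reverse complement, which was in no window of the 10 genes. These matches describe the letters in the windows and were not tested for binding.

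Between diets, 2 of the 10 genes were higher on HFD in STF, Pdk4 and Plin2, and 1 was lower, Abhd5. In LTF, 3 were higher, Plin2, Angptl4 and G0s2, and none was lower. Over all 14020 genes tested, 2.00% were higher and 1.33% lower in STF, and 0.435% were higher and 0.357% lower in LTF (edgeR's quasi-likelihood test, adjusted after Benjamini and Hochberg over all genes, adjusted p under 0.1). At an unadjusted p under 0.05 there were 5 of the 10 genes in STF, where 2523 of all genes had one, and 7 in LTF, where 1444 had one. DESeq2 called 3 of the 10 higher and 1 lower in STF, beside 5.93% and 5.01% of all genes, and 4 higher and none lower in LTF, beside 1.31% and 1.20%. The 3 in STF were Plin2, Angptl4 and Creb3l3, and the 1 lower was Abhd5. The 4 in LTF were Plin2, Angptl4, G0s2 and Vnn1. Pdk4 had no adjusted p from DESeq2 in either set. The median log2 fold change of the 10 genes was 0.58 in STF and 0.92 in LTF, beside -0.05 and -0.03 over all genes. The plot of diet differences shows 9 of the 10 genes on the same side of 0 in both sets, with Ucp2 the exception, although Pnpla2 lay near 0. The share of all genes with the same sign in both sets was not counted, so whether 9 of 10 is unusual is not known. The standard errors given with log2 fold changes were derived from the test's F value.

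**Figure D1:**
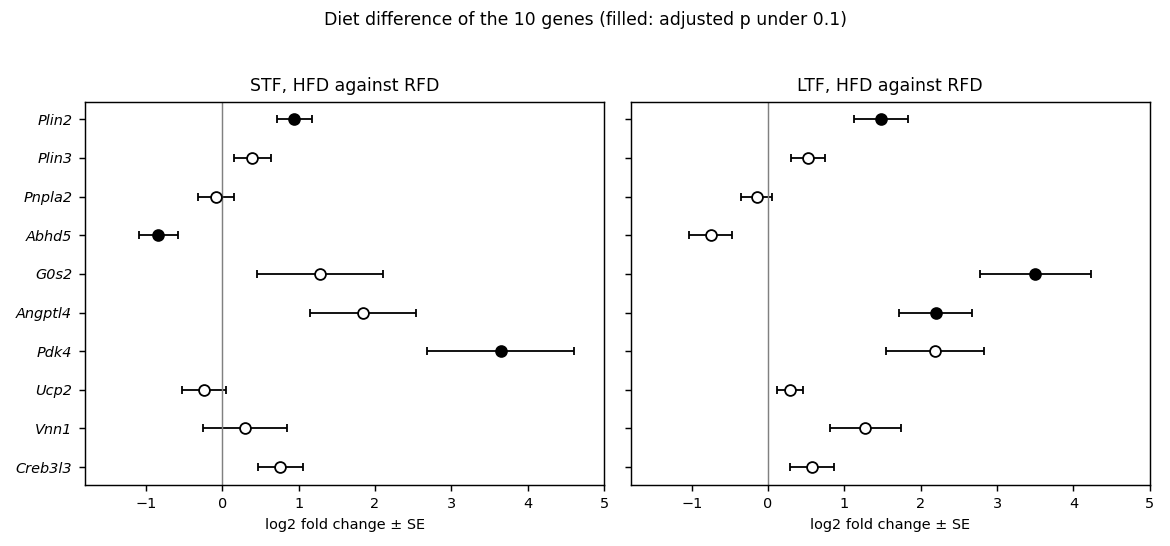
Log2 fold change of each gene, HFD against RFD, in STF (left, n = 11 and 11) and LTF (right, n = 11 RFD and 12 HFD); points are fitted values, bars are 1 SE and filled points had an adjusted p under 0.1. Plin2 is filled in both sets, Pdk4 and Abhd5 in STF, and Angptl4 and G0s2 in LTF.

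Plin2, which encodes the perilipin that coats droplets in most cells that do not specialise in fat storage, was the only gene of the 10 called in both sets. In STF its level ran from 30.9 to 93.2 CPM on RFD (median 62.5) and from 58.5 to 198.1 CPM on HFD (median 123.5). The diets overlapped, yet 8 of 11 HFD mice lay above every RFD mouse and 10 of 11 above the RFD median. The means were 65.7 ± 19.4 and 123.3 ± 44.4 CPM (SD, n = 11 each), or 0.94 ± 0.23 (SE) as log2 fold change, with an adjusted p of 0.0519 in edgeR's test. Within the 3 series into which the mouse numbers fall, the HFD minus RFD difference in mean log2 CPM was 1.07, 0.92 and 0.42. The call was lost without HFD mouse 6, 70 or 80 (adjusted p of 0.110, 0.113 and 0.110 with edgeR).

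In LTF, Plin2 ran from 0 to 97.5 CPM on RFD (median 47.5) and from 78.1 to 275.7 CPM on HFD (median 127.5). All 12 HFD mice lay above the RFD median and 10 of 12 above every RFD mouse, so only a narrow band was shared. The means were 50.3 ± 27.3 (SD, n = 11) and 142.1 ± 59.1 CPM (SD, n = 12), or 1.48 ± 0.35 (SE) as log2 fold change, with an adjusted p of 0.0492 in edgeR's test. Without RFD mouse 3, the library at 0, it was 1.35 with an adjusted p of 0.00183 (edgeR). The differences within the number series were 2.952, 1.573 and 1.147, and the first of these was 1.461 without RFD mouse 3. The call was lost without HFD mouse 7 or RFD mouse 10 or 40 (adjusted p of 0.101, 0.116 and 0.104 with edgeR), and without the third number series, in LTF the mice 21 to 24 and 31 to 34, which leaves 7 RFD and 8 HFD libraries (adjusted p = 0.767, edgeR). The log2 fold change without that series was 1.74 ± 0.53 (SE).

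Plin3, a perilipin that sits in the cytosol and moves onto newly forming droplets, did not pass the test in either set. It ran from 15.6 to 170.5 CPM on RFD (median 83.7) and from 65.3 to 175.6 CPM on HFD (median 113.8) in STF, which gave 0.39 ± 0.24 (SE) as log2 fold change and an adjusted p of 0.410 in edgeR's test. In LTF it ran from 67.4 to 160.1 CPM on RFD (median 104.5) and from 88.9 to 286.4 CPM on HFD (median 161.0), which gave 0.52 ± 0.22 (SE) as log2 fold change and an adjusted p of 0.410 in edgeR's test. The diets overlapped widely in STF, and in LTF 6 of 12 HFD mice lay above every RFD mouse. The 95% intervals of its log2 fold change ran from -0.09 to 0.87 and from 0.09 to 0.95. Per length, the medians of Plin2 and Plin3 lay close together: the log2 ratio of Plin2 to Plin3 (TPM + 1, where TPM is a level scaled to transcript length and library total) had medians of -0.15 on RFD and 0.53 on HFD in STF, and of -0.73 and 0.15 in LTF. Plin2 exceeded Plin3 in 5 of 11 RFD and 8 of 11 HFD libraries in STF, and in 1 of 11 RFD and 8 of 12 HFD libraries in LTF. On the same measure in CPM, which is not scaled to length, the LTF counts were 0 of 11 and 4 of 12.

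Of the 3 genes of triglyceride breakdown, the gene of the lipase itself passed the test in neither set, while those of its activator and its inhibitor had fold changes of opposite sign. Pnpla2 encodes ATGL, which cleaves the first fatty acid from triglyceride. Its median was 40.6 CPM on both diets in STF, with ranges from 15.1 to 63.2 CPM on RFD and from 23.2 to 49.6 CPM on HFD. In LTF the median was 74.5 CPM on RFD and 80.2 CPM on HFD, with ranges from 35.1 to 125.5 and from 37.3 to 92.2 CPM. The HFD values lay within the RFD range in both sets, although without RFD mouse 3 of LTF, the lowest there, 3 of 12 HFD mice lay below it. The log2 fold changes were -0.08 (SE 0.24) and -0.15 (SE 0.20), with 95% intervals from -0.55 to 0.39 and from -0.55 to 0.25. In STF its sign was positive without RFD mouse 23 (0.01) and when the number series was a term of the fit (0.01).

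Abhd5, which encodes CGI-58, the co-activator of ATGL, was lower on HFD in STF. It ran from 22.7 to 47.2 CPM on RFD (median 27.6) and from 11.3 to 34.4 CPM on HFD (median 14.3). In STF, 9 of 11 HFD mice lay below every RFD mouse. The means were 31.9 ± 8.45 and 17.3 ± 7.37 CPM (SD, n = 11 each), or -0.84 ± 0.25 (SE) as log2 fold change, with an adjusted p of 0.0919 in edgeR's test. The differences within the number series were -0.88, -1.01 and -0.81. The adjusted p lay close to the threshold, and it was between 0.102 and 0.186 (edgeR) without any 1 of HFD mice 5, 50, 6, 60, 70, 8 and 80 or of RFD mice 1, 21, 22, 23, 24, 3 and 84. It was 0.112 when the number series was a term of the fit, 0.129 without the 2 libraries under 500000 reads and 0.264 without a filter on low counts (edgeR), with log2 fold changes of -0.85, -0.81 and -0.81.

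In LTF, Abhd5 ran from 15.8 to 61.4 CPM on RFD (median 33.4) and from 8.0 to 44.8 CPM on HFD (median 17.6), and 11 of 12 HFD mice lay below the RFD median. The log2 fold change between diets was -0.75 ± 0.28 (SE), with an adjusted p of 0.312 in edgeR's test, and did not pass. The differences within the number series were -0.77, -0.34 and -0.81. Abhd5 shares 950 of its 5956 exonic bases (16.0%) with A730085K08Rik on the other strand, and the libraries do not keep strand, so their reads cannot be told apart there. A730085K08Rik had at most 9 reads in a library.

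G0s2, which encodes the inhibitor of ATGL, was higher on HFD in LTF and scarce on RFD. On RFD it ran from 0 to 11.1 CPM (median 0), with no read in 7 of 11 libraries and at most 17 reads. On HFD it ran from 0 to 47.1 CPM (median 14.2), with no read in 1 of 12 libraries and up to 232 reads. In LTF, 9 of 12 HFD mice lay above every RFD mouse. The means were 1.46 ± 3.36 (SD, n = 11) and 17.9 ± 13.3 CPM (SD, n = 12), or 3.50 ± 0.73 (SE) as log2 fold change, with an adjusted p of 0.0215 in edgeR's test. The differences within the number series were 4.09, 2.93 and 3.07, and the call held with any 1 library left out (adjusted p from 0.000615 to 0.0509 over 23 fits, edgeR). Without RFD mouse 23, the library with the highest G0s2 on that diet, the log2 fold change was 4.71. Without the third number series the log2 fold change was 4.46 ± 0.91 (SE) and the adjusted p was 0.106 (edgeR).

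In STF, G0s2 ran from 0 to 11.3 CPM on RFD (median 1.30) and from 0 to 18 CPM on HFD (median 8.70), and 10 of 11 HFD mice lay above the RFD median. The log2 fold change between diets was 1.28 ± 0.83 (SE), with an adjusted p of 0.427 in edgeR's test, and did not pass. G0s2 lies within Lamb3, a laminin chain gene on the other strand, and shares no exonic base with it. Lamb3 differed by 2.07 ± 0.38 (SE, log2) in LTF with an adjusted p of 0.00677 (edgeR) and by 1.54 ± 0.72 (SE, log2) in STF with an adjusted p of 0.261 (edgeR). Without strand, reads from unspliced Lamb3 RNA cannot be told apart from those of G0s2.

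**Figure D2:**
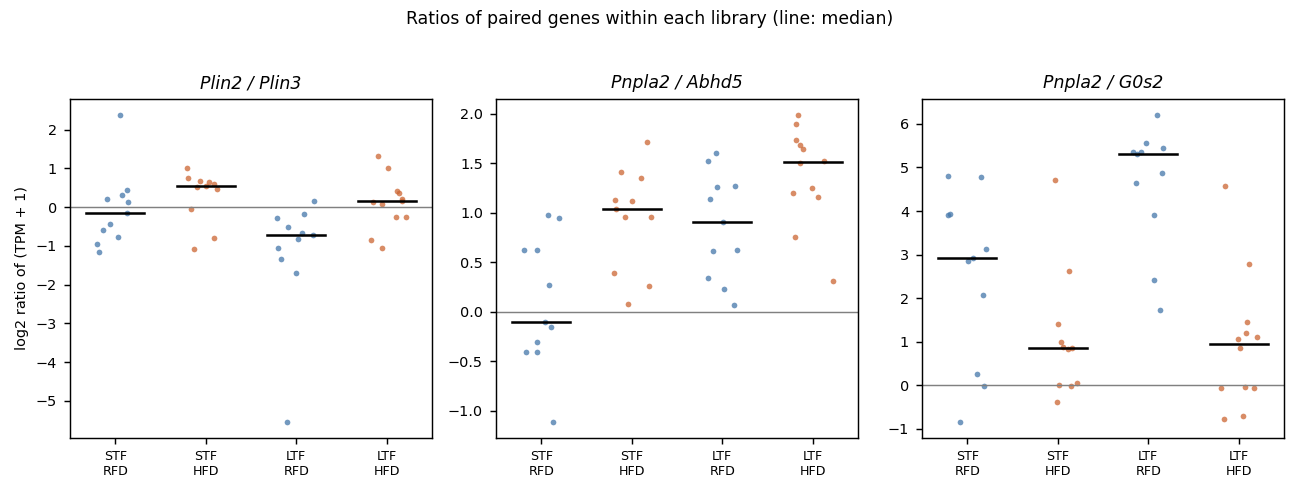
Log2 ratio of (TPM + 1) within each library for Plin2 to Plin3, Pnpla2 to Abhd5 and Pnpla2 to G0s2; points are libraries, lines are group medians and blue and orange are RFD and HFD. Pnpla2 exceeded Abhd5 in 11 of 11 STF HFD libraries and in 5 of 11 STF RFD libraries.

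The plot of ratios within libraries sets the lipase against its regulators, and such ratios depend little on the scaling between libraries. The log2 ratio of Pnpla2 to Abhd5 had a median of -0.10 on RFD (range -1.12 to 0.97) and 1.04 on HFD (range 0.08 to 1.72) in STF. In LTF the medians were 0.91 (range 0.07 to 1.61) and 1.51 (range 0.31 to 1.99). The lipase thus stood higher relative to its activator on HFD in the median of both sets, and the ranges overlapped. The log2 ratio of Pnpla2 to G0s2 went the other way, with medians of 2.93 on RFD and 0.85 on HFD in STF and of 5.31 and 0.95 in LTF. The size of the RFD medians depends on the value added to TPM, since G0s2 had no read in 5 of 11 STF and 7 of 11 LTF RFD libraries. With 0.1 added in place of 1, the medians were 3.60 and 0.94 in STF and 8.60 and 0.98 in LTF. In LTF, G0s2 exceeded Pnpla2 per length in 5 of 12 HFD libraries and in 0 of 11 RFD libraries, while in STF it did so in 2 of 11 libraries on each diet. These ratios are given as descriptions and were not tested.

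Angptl4 encodes a secreted inhibitor of lipoprotein lipase that rises with fasting in many tissues. In LTF it ran from 1.12 to 13.7 CPM on RFD (median 2.45) and from 1.33 to 46.5 CPM on HFD (median 17.4). The spans overlapped, with 8 of 12 HFD mice above every RFD mouse and 11 of 12 above the RFD median. The means were 4.07 ± 3.78 (SD, n = 11) and 19.3 ± 13.0 CPM (SD, n = 12), or 2.19 ± 0.47 (SE) as log2 fold change, with an adjusted p of 0.026 in edgeR's test. The differences within the number series were 2.33, 1.32 and 2.52. The call held with any 1 library left out (adjusted p from 0.00854 to 0.0656, edgeR) and was lost without the third number series (adjusted p = 0.714, edgeR), where the log2 fold change was 2.20 ± 0.64 (SE).

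In STF, Angptl4 ran from 0 to 21.9 CPM on RFD (median 1.90) and from 0 to 41.5 CPM on HFD (median 24.7). There, 10 of 11 HFD mice lay above the RFD median and 6 of 11 above every RFD mouse. The log2 fold change between diets was 1.85 ± 0.69 (SE), with an adjusted p of 0.159 in edgeR's test, and did not pass. It passed without HFD mouse 64 (adjusted p = 0.0485) and without RFD mouse 20 (adjusted p = 0.0867, both edgeR). Of 14 other settings of the fit, 6 called it higher in STF, among them DESeq2 (adjusted p = 0.0624).

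Pdk4 encodes the kinase that switches off pyruvate dehydrogenase and so spares glucose during fasting. It was near the limit of detection: in STF it had from 0 to 2 reads per library on RFD and from 0 to 30 on HFD. These are 0 to 1.51 CPM (median 0) and 0 to 12.9 CPM (median 3.37), and 9 of 11 HFD mice lay above every RFD mouse. Over the group, 5 of 23176075 reads on RFD and 79 of 20462442 on HFD were Pdk4, a ratio of 17.9 with an exact 95% interval from 7.35 to 56.6 that covers counting error only. The fit gave 3.65 ± 0.96 (SE) as log2 fold change, with an adjusted p of 0.0662 in edgeR's test. Because the RFD libraries were so low, the size of this log2 fold change depends on the prior count of the fit, which was not varied. The differences within the number series were 2.15, 2.35 and 0.28 in mean log2 CPM. The adjusted p was between 0.109 and 0.128 (edgeR) without any 1 of HFD mice 6, 70, 8 and 80 or of RFD mice 1, 21, 23 and 84, and 0.121 when the number series was a term of the fit. Without RFD mouse 24 the log2 fold change was 4.25 (adjusted p = 0.0684, edgeR).

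In LTF, Pdk4 had from 0 to 12 reads on RFD and from 1 to 62 on HFD, or 0 to 7.84 CPM (median 1.62) and 0.620 to 25.6 CPM (median 10.8). The HFD libraries lay above every RFD library in 8 of 12 mice. The log2 fold change between diets was 2.19 ± 0.65 (SE), with an adjusted p of 0.154 in edgeR's test, and did not pass. It passed without RFD mouse 1 (adjusted p = 0.0773) or RFD mouse 23 (adjusted p = 0.0915, both edgeR). Of 12 other settings of the fit that gave an adjusted p, 4 called it higher in LTF. Pdha1, the pyruvate dehydrogenase subunit that PDK4 phosphorylates, differed by 0.78 ± 0.25 (SE, log2) in STF with an adjusted p of 0.0992 (edgeR) and by 0.58 ± 0.39 (SE, log2) in LTF with an adjusted p of 0.643 (edgeR). It was thus higher on HFD in STF by the test, at the edge of the threshold.

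Vnn1 encodes pantetheinase, an enzyme of coenzyme A turnover and a target of PPAR alpha. In STF it ran from 0 to 19 CPM on RFD (median 6.49) and from 0.504 to 26.1 CPM on HFD (median 12), which gave 0.30 ± 0.55 (SE) as log2 fold change and an adjusted p of 0.830 in edgeR's test. In LTF it ran from 0 to 27.5 CPM on RFD (median 12.3) and from 4.96 to 72.5 CPM on HFD (median 24), which gave 1.28 ± 0.47 (SE) as log2 fold change and an adjusted p of 0.298 in edgeR's test. The diets overlapped in both sets, and 5 of 12 HFD mice in LTF lay above every RFD mouse. Neither passed edgeR's test. DESeq2 called Vnn1 higher in LTF (adjusted p = 0.0927), the only 1 of 13 other settings of the fit to do so.

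Creb3l3 encodes CREBH, a membrane-bound transcription factor of liver and intestine that acts with PPAR alpha in fasting. In STF it ran from 11.9 to 124.5 CPM on RFD (median 64.4) and from 65.5 to 161.8 CPM on HFD (median 92.0), and all 11 HFD mice lay above the RFD median. The log2 fold change between diets was 0.76 ± 0.29 (SE), with an adjusted p of 0.167 in edgeR's test, and it passed only without RFD mouse 4 among the fits that left out 1 library (adjusted p = 0.0962, edgeR). Of 14 other settings of the fit, 5 called Creb3l3 higher in STF. Among these were DESeq2 (adjusted p = 0.083) and edgeR with the number series as a term (adjusted p = 0.0883). In LTF it ran from 27.9 to 334.9 CPM on RFD (median 101.3) and from 72.6 to 273.2 CPM on HFD (median 176.9), which gave 0.57 ± 0.29 (SE) as log2 fold change and an adjusted p of 0.503 in edgeR's test. The highest value in LTF was that of RFD mouse 3, the library with the fewest genes detected. Without it the RFD values reached 183.7 CPM, and 5 of 12 HFD mice lay above them.

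Ucp2 encodes a carrier of the inner mitochondrial membrane. It ran from 171.2 to 976.4 CPM on RFD (median 597.5) and from 171.1 to 752.5 CPM on HFD (median 488.5) in STF. In LTF it ran from 393.5 to 983.0 CPM on RFD (median 604.5) and from 535.8 to 1087 CPM on HFD (median 834.0). The log2 fold changes were -0.24 (SE 0.29, adjusted p = 0.711) and 0.29 (SE 0.17, adjusted p = 0.570, both edgeR), and the diets overlapped throughout. Ucp2 shares 305 of its 6989 exonic bases (4.4%) with Dnajb13 on the other strand, which had at most 14 reads in a library.

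**Figure D3:**
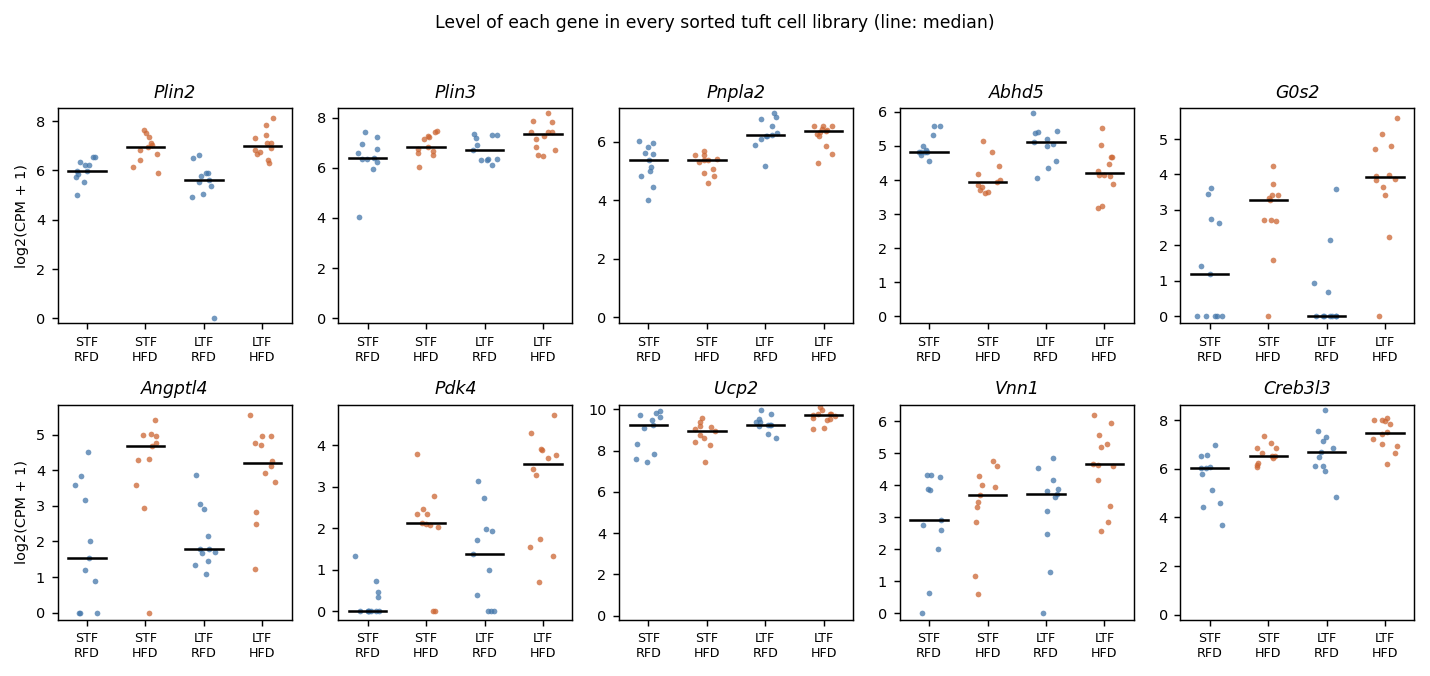
Level of each of the 10 genes as log2(CPM + 1) in every library; points are mice, lines are group medians and blue and orange are RFD and HFD, with 11 libraries per group and 12 in LTF HFD. Plin2 and G0s2 stand higher on HFD in LTF, Abhd5 stands lower on HFD in STF, and the LTF RFD library without Plin2 reads is the point at 0.

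Levels between genes were compared per length, in TPM. Ucp2 was the most abundant of the 10 genes in all 45 libraries, with medians of 415.1 and 238.9 TPM on RFD and HFD in STF and 418.8 and 587.0 TPM in LTF. It made up a median of 69.4% and 59.4% of the TPM of the 10 genes in STF and 64.8% and 60.2% in LTF. Plin2, Plin3 and Creb3l3 followed it at medians between 20.2 and 79.1 TPM, with Pnpla2 between Creb3l3 and Plin2 in LTF RFD. On RFD in STF, neighbours in this order from Plin3 to Pnpla2 did not separate, each above the next in 6 or 7 of 11 libraries. Pnpla2 and Abhd5 had medians between 7.67 and 43.1 TPM. Vnn1, Angptl4, G0s2 and Pdk4, the low end on RFD, had medians from 0 to 23.2 TPM, the highest that of G0s2 in LTF HFD. Pdk4 was last in 3 of the 4 groups, with G0s2 last in LTF RFD. On HFD the median of G0s2 lay above that of Abhd5, at 7.92 against 7.67 TPM in STF and 23.2 against 12.8 TPM in LTF. G0s2 exceeded Abhd5 in 8 of 11 STF and 9 of 12 LTF HFD libraries.

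Whether the diet difference itself differed between sets was tested as an interaction, and none of the 10 genes passed (adjusted p of 1.00 for each, edgeR's test over all genes). Over all 14020 genes none passed either, and 3.22% had an unadjusted p under 0.05. For G0s2 the difference in LTF exceeded that in STF by 2.29 on the log2 scale (SE 1.09, unadjusted p = 0.0408, edgeR), the only 1 of the 10 with an unadjusted p under 0.05. For Pdk4 the estimate was -1.45 (SE 0.97, unadjusted p = 0.142, edgeR) and for Plin2 0.59 (SE 0.43, unadjusted p = 0.171, edgeR). A call in 1 set alone, as for Abhd5, Angptl4, Pdk4 and G0s2, is therefore not shown to differ between the sets.

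Levels of tuft and Paneth cell markers stood apart between the diets without passing the test, as given above. Of 8 enteroendocrine cell markers, 4 (Cck, Gcg, Nts and Ghrl) were lower on HFD in LTF, and of 5 stem cell markers, 2 (Olfm4 and Smoc2) were higher on HFD in STF (edgeR). Of 13 enterocyte markers, Apoc3 and Rbp2 in STF and Slc5a1 and Rbp2 in LTF were called, 1 higher and 1 lower in each set (edgeR). None of 6 macrophage markers was called, but all 6 had positive log2 fold changes in LTF (median 3.57), where their summed level had medians of 5.25 and 3.57 CPM on RFD and HFD and reached 99.4 and 2248 CPM. All 5 tested T cell markers had negative log2 fold changes in both sets (medians -1.39 in STF and -1.5 in LTF). Of 7 goblet cell markers, 6 in STF and 7 in LTF had positive ones, and none of either type was called. The part of these cell types in the diet differences of the 10 genes was not tested beyond the fits given next. The other cell types scored there were enterocyte, goblet, Paneth, enteroendocrine, stem and T cells, so macrophage markers entered no fit. With the tuft marker score minus that of other cell types as a covariate, none of the 10 genes was called in STF (adjusted p of 0.33 for Plin2, 0.548 for Pdk4 and 0.491 for Abhd5, edgeR), where the fit called 21 genes in all. The log2 fold changes in that fit were 0.68 ± 0.22 for Plin2, 2.56 ± 1.13 for Pdk4 and -0.68 ± 0.27 for Abhd5 (SE), beside 0.94, 3.65 and -0.84 without the covariate. In LTF the same covariate left all 3 calls in place (adjusted p of 0.0343 for Plin2, 0.0117 for Angptl4 and 0.00857 for G0s2, edgeR) and added Pdk4 (adjusted p = 0.0994). An enterocyte marker score as the covariate kept the 3 STF calls (adjusted p of 0.0108 for Plin2, 0.0401 for Pdk4 and 0.0584 for Abhd5, edgeR). That fit called 1415 genes in STF and added Angptl4 (adjusted p = 0.0735) and Creb3l3 (adjusted p = 0.027). In LTF it kept the 3 calls and added Creb3l3 (adjusted p = 0.0531, edgeR). With limma on log2(TPM + 1) none of the 10 genes was called in STF, where that fit called 9 genes in all, and G0s2 alone in LTF (adjusted p = 0.00269), where it called 51. On that scale the differences were 0.72 for Plin2, 0.81 for Pdk4 and -0.89 for Abhd5 in STF and 1.77 for Plin2 and 1.55 for Angptl4 in LTF. Fat cells share several of these genes. Of 5 fat cell markers, Adipoq, Plin1 and Lep reached 6, 6 and 5 reads at most, too few to be tested. Cidec and Fabp4 were tested and not called, and their summed level had medians of 18.8 and 20.4 CPM on RFD and HFD in STF and 17.7 and 32.9 CPM in LTF, ranging from 3.96 to 88.7 CPM.

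**Figure D4:**
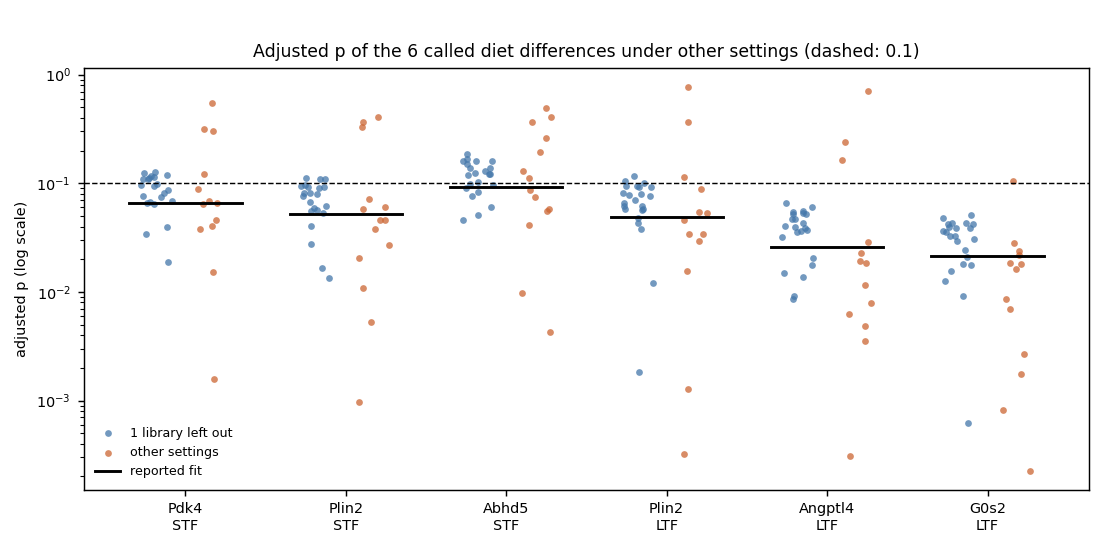
Adjusted p, on a log scale, of the 6 called diet differences when 1 library is left out (blue) and under the other settings (orange), with the reported fit as a black line and the threshold of 0.1 dashed; fits of a single number series are not drawn. The blue points of Angptl4 and G0s2 in LTF all lie under the line, and those of Abhd5 in STF lie on both sides of it.

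The genes around the 10 were counted from 4 further lists. Of 27 tested genes of lipid droplet proteins and enzymes, 1 was higher in STF and none in LTF (edgeR, with 5 and 3 at an unadjusted p under 0.05), with median log2 fold changes of 0.04 and 0.24. The 1 was Pnpla8, a phospholipase of mitochondria and peroxisomes, which averaged 29.9 and 47.3 CPM on RFD and HFD (log2 fold change 0.73, SE 0.22, adjusted p = 0.097, edgeR), with all 11 HFD mice above the RFD median. Bscl2, which encodes seipin of droplet formation, had -0.80 in STF (SE 0.26, adjusted p = 0.110, edgeR), and Pnpla3 had -1.24 (SE 0.50, adjusted p = 0.185, edgeR). In LTF the smallest p belonged to Lipa, the lysosomal acid lipase, at 15.9 and 40.5 CPM (log2 fold change 1.35, SE 0.36, adjusted p = 0.102, edgeR), followed by Cidec (1.01, SE 0.36, adjusted p = 0.271) and Fitm2 (0.80, SE 0.37, adjusted p = 0.453).

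Of 22 tested paralogs and partners of the 10 genes, only Pdha1 in STF was called. Pank3, a kinase at the entry of coenzyme A synthesis, had 1.05 in LTF (SE 0.34, adjusted p = 0.223, edgeR) and 0.75 in STF (SE 0.33, adjusted p = 0.222, edgeR). Of 13 tested PPAR and RXR genes and coregulators, none was called in either set (edgeR, with 2 and 3 at an unadjusted p under 0.05), and their median log2 fold changes were -0.56 and -0.11. Ppara itself averaged 5.06 CPM on RFD and 10.7 on HFD in STF (1.14, SE 0.84, adjusted p = 0.491, edgeR) and 3.74 and 8.61 CPM in LTF (1.16, SE 0.51, adjusted p = 0.436, edgeR). Ppard went the other way, with -1.052 in STF (SE 0.528, adjusted p = 0.293, edgeR) and -1.208 in LTF (SE 0.535, adjusted p = 0.44, edgeR). Pparg had -1.11 in STF (SE 0.39, adjusted p = 0.133, edgeR), and the corepressor gene Ncor1 had -0.56 in STF (SE 0.22, adjusted p = 0.167, edgeR) and -0.65 in LTF (SE 0.19, adjusted p = 0.151, edgeR).

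By contrast, of 17 tested genes of fat oxidation chosen for comparison, 8 were higher in STF and 7 in LTF, and none was lower. Their median log2 fold changes were 0.70 and 0.83, beside 0.58 and 0.92 for the 10 genes. Among those called, Acadvl, Acaa2, Hadhb, Acot1 and Cyp4a10 were higher in both sets, Hadha and Etfdh in STF and Acadl in LTF. Acadvl, which encodes the first enzyme of long-chain fatty acid oxidation in mitochondria, had means of 175.0 and 367.3 CPM on RFD and HFD in STF and of 149.4 and 280.2 CPM in LTF (log2 fold changes 1.10 and 0.91, SE 0.22 and 0.21, adjusted p of 0.0176 and 0.0428, edgeR). This list was drawn up with results of these libraries known, so its direction is no independent evidence.

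For each of the 10 genes, the genes whose level followed it most closely across the 45 libraries, after the mean of each of the 4 groups was taken away, are given as a description. They share library, depth and cell makeup with it. For Plin2 they were Sqor, Ddb1 and Gucd1 (Pearson r of 0.918, 0.914 and 0.904 over 45 libraries), values that rest on the LTF RFD library at 0, since r was 0.699, 0.641 and 0.62 over the 44 libraries without it. For Creb3l3 they were the enterocyte genes Alpi, Apoc3 and Apoa1 (r of 0.801, 0.801 and 0.775), for Ucp2 Rnf44, Jup and Ywhaz (0.835, 0.803 and 0.782), and for Vnn1 Anxa13, Slc3a1 and Idh1 (0.725, 0.717 and 0.704). Angptl4 was followed by Clpb, Tefm and Sdad1 (r of 0.726, 0.694 and 0.657) and Plin3 by Ss18l2, Tmbim6 and Myo1a (0.731, 0.698 and 0.693). For Pnpla2 they were Gpr18, Pank4 and Rhoa (r of 0.668, 0.66 and 0.659), for Abhd5 Eid1, Ablim3 and Rab2b (0.561, 0.559 and 0.557), for G0s2 Adh4, Cluap1 and Zfp553 (0.641, 0.589 and 0.587) and for Pdk4 Slc28a1, Gm15200 and Cyp4v3 (0.637, 0.625 and 0.579). Among the 10 themselves the highest values were 0.53 for Plin2 with Vnn1, which was 0.41 without that library, 0.50 for Plin3 with Creb3l3 (0.58 without it) and 0.47 for both Plin3 with Vnn1 and Angptl4 with G0s2 (0.47 for each without it). Angptl4 with Plin2 had 0.35 over all libraries and 0.54 without it.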

How the data were processed

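RNA of sorted tuft cells was amplified by Smart-seq2, made into libraries with Nextera XT, which keeps no strand, and sequenced as read pairs by the authors. Per the labels' processing notes, adapters were removed with cutadapt 1.15 and reads were aligned with STAR 2.6.0 to GRCm38 and counted with RSEM. The deposited tables hold estimated counts per gene from RSEM, of which 8.79% of those above 0 are not whole, and the deposited TPM and FPKM values made by the authors from the same counts. The cell type weights that the authors applied to counts and their SAM-seq test were not repeated. Of the tables' columns, 24 matched no sample and were not used.

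Counts were rounded and the 14020 genes above 5 reads in 6 or more of the 45 libraries were tested. Diets were compared within each set with edgeR 4.0.16 (R 4.3.3), TMM normalisation and its robust quasi-likelihood test in the earlier, legacy form, with Benjamini-Hochberg adjustment over all genes and a threshold of 0.1. The interaction used all 45 libraries. DESeq2 1.42.0 and limma 3.58.1 served as alternatives. Counts were simulated with 100 genes changed by 2 and 100 by 3 on the log2 scale, all drawn from genes above the median level. The test recovered 95% and 97% of them in STF, with 27 false calls, and 88% and 99% in LTF, with 24. Recovery of scarcer genes, or of smaller changes such as those of Plin2 and Abhd5 in STF, was not simulated. CPM are TMM-normalised over all libraries, and log2 CPM for differences within series used a prior count of 2. TPM and FPKM served for ratios and levels between genes. All values of 1 gene were read from the fit over all genes.

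The 10 genes and the lists were chosen with earlier results of these data known. All 10 genes are named, and of the other lists those called in a set or, where few were, up to 3 with the smallest p, as well as Ppara, Cidec and Fabp4, named after their values were seen. Of the fat oxidation list, 1 called gene is counted but not reported here by name. The 3 genes with the highest Pearson r to each of the 10 are named too. The labels name separate mice per library. The mouse numbers fall into 3 series of 15, 13 and 15 libraries with both diets, and 2 libraries lie outside. Coordinates follow GENCODE M21 on GRCm38. Intervals of read ratios cover counting error only.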

Additional observations from a re-analysis of the deposited data

How the results depend on the processing

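The number of genes called in STF, 466 in the reported fit, was 1606 with edgeR's bias-corrected deviance, 1534 with DESeq2, 1698 without a filter on low counts, 711 with a stricter filter (more than 10 reads in at least 11 libraries), 9 and 5 with limma on log2(TPM + 1) and log2(TPM + 0.1), 4245 with limma-voom and sample weights, 290 without the 2 libraries under 500000 reads, 21 with the tuft minus other marker score and 1415 with the enterocyte marker score as a covariate, 1072, 2 and 6 in the 3 number series alone and 191 without the third series. Of the 10 genes described, 3 in the reported fit, STF then had 0 with either limma fit on TPM, 6 with limma-voom, 0 and 5 with the tuft and enterocyte scores, and 1, 0 and 0 in the number series alone. The number called in LTF, 111, was 226 with the bias-corrected deviance, 351 with DESeq2, 435 without a filter, 51 and 31 with limma on log2(TPM + 1) and log2(TPM + 0.1), 2536 with limma-voom, 185 when the number series was a term of the fit, 246 with the tuft score, 0, 67 and 227 in the number series alone and 6 without the third series. Of the 10 genes, again 3, LTF had 1 with either limma fit on TPM, 6 with limma-voom, 0 and 1 in the first and second series alone and 0 without the third. Interaction calls, 0 in the reported fit, were 1 without edgeR's robust option, 4 with the bias-corrected deviance and 65 without a filter, none of them among the 10 genes. The cause of these moves was not tested, except that fits of 1 series or without 1 hold fewer libraries. Leaving out 1 library gave 59 to 1996 genes in STF and 58 to 667 in LTF, with 0 to 4 and 2 to 4 of the 10 genes.

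The values whose sign turned had not passed the test in the reported fit. In STF, Pnpla2 had 0.009 with the batch term, 0.01 with the tuft score, 0.15 in the second series alone and -0.175 to 0.012 when 1 library was left out, Ucp2 had 0.075 with the tuft score and 1.20 in the second series, and Vnn1 had -0.27 in the third series. In LTF, Pnpla2 had 0.21 in the first series and Ucp2 -0.14 in the second. Interaction estimates turned to -0.42 for Angptl4 with limma on log2(TPM + 0.1), 0.43 and 0.07 for Pdk4 with limma at TPM + 1 and TPM + 0.1, -0.057 for Plin3 with the enterocyte score and -0.043 for Abhd5 with the tuft score. The mean log2 ratio of Pnpla2 to G0s2 on RFD in LTF was 4.62 with a pseudocount of 1 and 6.87 with 0.1, and that of Pnpla2 to Abhd5 on HFD in LTF was 1.39 in TPM and 1.91 in CPM. DESeq2 gave no adjusted p for Pdk4 in either set or for G0s2 in STF. No LTF library was under 500000 reads, so that alternative was not run there. The settings without edgeR's robust option, with the bias-corrected deviance and without the third number series were chosen after seeing the data. No paired analysis was possible because RFD and HFD mice of a set share no mouse number. Pdk4, G0s2, Angptl4 and Vnn1 had libraries with no read, as did Plin2 in 1 library, and for Pdk4, G0s2 and Angptl4 these included libraries of 3545636 reads or more.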
